A study of Homo sapiens with 16 samples.

Results

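Collagen genes and the genes that process collagen were followed as a set of 37 genes, 24 of which encode collagen chains and 13 of which encode the enzymes, chaperones and proteases that modify, fold and trim them. The genes were taken from a list of gene names, and each matched 1 Ensembl gene among the 63677 gene identifiers counted. Of the 37, 36 had enough reads to be tested. COL4A3, a basement membrane chain, did not, with 26 reads over 16 libraries.

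The RNA came from a human melanoma line, UACC62P, and from UACC62R, its vemurafenib-resistant variant, obtained by 2 months of selection with vemurafenib, a BRAF inhibitor, at 2 uM and then kept in the drug, per the labels of the untreated libraries. Each line was sequenced without treatment (0 h) and after 2, 6 and 24 h in 10 uM CCG-222740, a small molecule, with 2 libraries in each of the 8 groups. Medium with 10% serum was shared by all groups. The labels of the treated libraries do not say whether vemurafenib was present, and they describe another plating than those of the 0 h libraries. No vehicle library was used here, so a difference from 0 h joins the compound with that change of handling, and the 2 cannot be told apart. The comparison of 24 h with 6 h lies within the treated libraries. There, time in culture and time in the compound cannot be told apart either. The labels do not say whether replicates were separate cultures, so p-values reflect the spread among libraries and nothing wider.

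Collagens are secreted triple helices built from 3 chains. In the endoplasmic reticulum, prolyl 4-hydroxylases stabilise the helix, lysyl hydroxylases prepare the sites of later cross-links, and chaperones hold the procollagen until it is folded. After secretion, proteases cut the propeptides from fibrillar collagens. In the skin, type IV collagen forms the basement membrane that melanocytes sit on, and types I, III, V and VI make up much of the dermal matrix that melanoma cells meet when they invade.

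The 15 libraries used held 25.9 to 33.3 M reads in genes. The library labelled UACC62P 2 h replicate 1 was left out because it resembled UACC62R, which leaves 1 library in that group. For example, COL5A1 stood at 657 CPM (counts scaled to library size by TMM) in it, against 2.62 to 4.99 CPM in the other 7 UACC62P libraries. The replicates of each of the other 7 groups differed from each other by more than counting noise. Of the 6 melanocyte lineage markers, 4 (MLANA, PMEL, TYR and DCT) were under 1 CPM in every UACC62R library, and their summed level with SOX10 and MITF was 69.2 to 80.4 CPM in UACC62R against 1137 to 1450 CPM in UACC62P. The 6 fibroblast markers summed to 107 to 145 CPM in UACC62R, mainly FAP, LUM and PDGFRB, and to 33.0 to 38.4 CPM in UACC62P. DCN and THY1 were under 1 CPM in every UACC62R library. Of the epithelial, endothelial and blood marker lists, CDH1, PECAM1, CD3E and HBB were at 0 CPM in both lines at 0 h. The epithelial list summed to 26.4 to 39.6 CPM in UACC62P and 65.0 to 91.2 CPM in UACC62R, mainly KRT18 and KRT8, the endothelial list to at most 4.74 CPM and the blood list to at most 1.11 CPM in any library used.

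At 0 h, most of the 24 listed chain genes were higher in the resistant line, and several of them by more than 50-fold. The labels of the 0 h libraries say that UACC62R was kept in vemurafenib, so line and drug exposure cannot be told apart. Of 16 collagen chain genes tested outside the list, 4 were called higher and 7 lower, as described further on. Of 36 members tested, 24 were higher in UACC62R and 4 were lower (edgeR quasi-likelihood test, Benjamini-Hochberg adjusted p under 0.05 over 20280 genes). Among all genes, 27.8% were called higher and 26.1% lower. The median log2 fold change was 1.65 over the members and 0.02 over all genes. The members were chosen with earlier results of these data known, so these shares and medians describe the list only. The summed level of the 24 chains was 4165 ± 131 CPM in UACC62R (SD, n = 2) and 1314 ± 44.95 CPM in UACC62P (SD, n = 2) at 0 h. The 2 lines also differed in the marker sums given above, and the part of those markers in the difference was not tested. In bulk RNA, fewer cells of a type and less RNA per cell cannot be told apart.

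**Figure D1:**
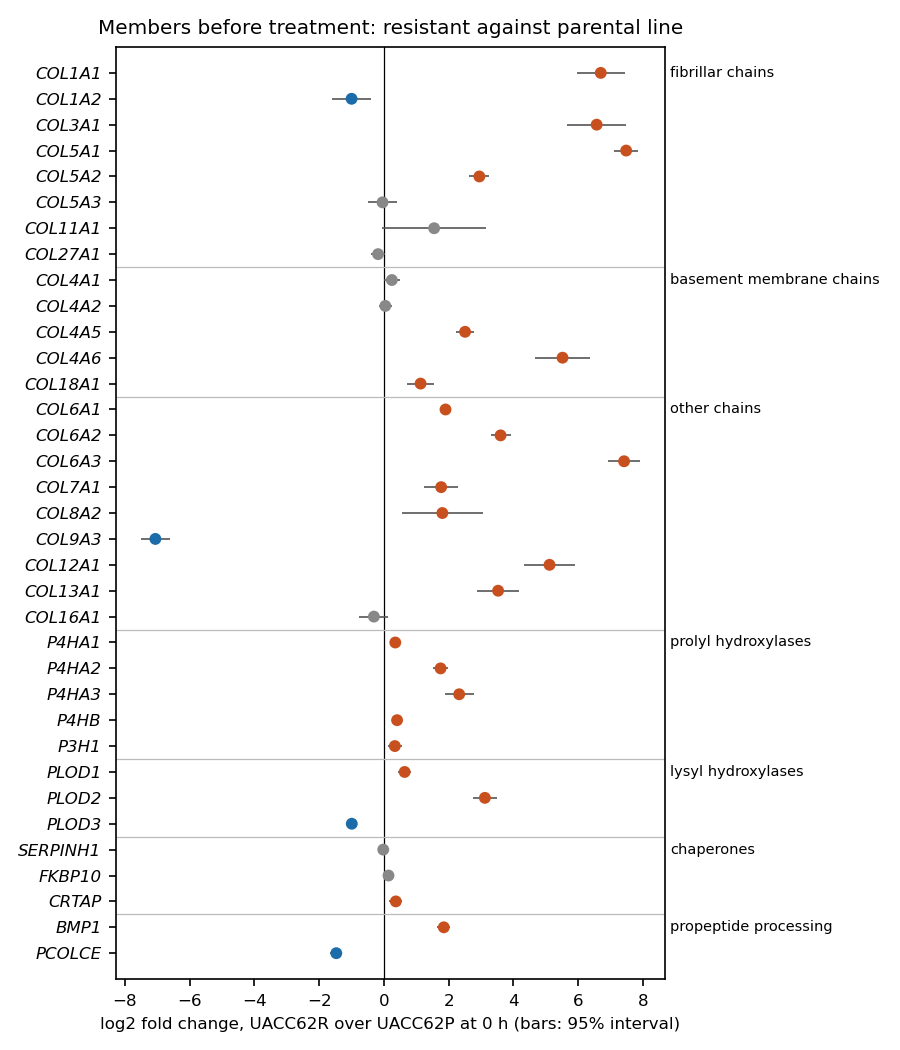
Log2 fold change of UACC62R over UACC62P at 0 h (x axis) for 35 tested members (y axis, grouped by role), with 95% intervals. Orange points passed the test as higher, blue as lower and grey ones did not pass. COL8A1 is not drawn because it had 0 reads in UACC62P at 0 h. COL5A1, COL6A3 and COL1A1 lie farthest to the right and COL9A3 farthest to the left.

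The fibrillar chains held both the largest differences and chains that barely differed. COL1A1, the gene of the alpha 1 chain of type I collagen, stood at 4.92 and 3.06 CPM in UACC62P and at 379.8 and 453 CPM in UACC62R at 0 h. The log2 fold change was 6.70 ± 0.34 (SE, adjusted p = 7.14e-10). COL1A2, which encodes the partner chain of type I, went the other way, with 4.43 and 4.68 CPM in UACC62P and 2.21 and 2.35 CPM in UACC62R. It fell by 1.00 on the log2 scale in the resistant line (SE 0.28, adjusted p = 0.00798). The 2 genes of the commonest type I trimer therefore moved in opposite directions between the lines, and neither gene had overlapping groups.

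COL3A1, the single chain of type III collagen, was at 0.208 and 0.540 CPM in UACC62P and at 30.8 and 40.6 CPM in UACC62R, a log2 fold change of 6.57 ± 0.43 (adjusted p = 9.69e-09). COL5A1, a chain of the type V collagen that seeds fibrils, was at 4.99 and 4.86 CPM in UACC62P and at 863 and 903 CPM in UACC62R. Its log2 fold change of 7.48 ± 0.18 was the largest among the members tested that had reads in both lines (adjusted p = 2.48e-13). COL5A2, its partner chain, was already at 165 and 133 CPM in UACC62P and reached 1095 and 1208 CPM in UACC62R, a log2 fold change of 2.95 ± 0.14 (adjusted p = 3.93e-10).

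COL5A3, the third chain of type V, did not share that difference. It was at 49.7 and 45.2 CPM in UACC62P and at 48.4 and 43.7 CPM in UACC62R, with overlapping groups and a 95% interval of the log2 fold change from -0.49 to 0.40. COL27A1 differed by -0.18 ± 0.10 and did not pass the test (adjusted p = 0.127). COL11A1, at most 0.530 CPM in any library used, did not pass either (adjusted p = 0.0940).

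Among the basement membrane chains, COL4A5 and COL4A6 were higher in UACC62R and the more abundant pair COL4A1 and COL4A2 was not called. COL4A5 was at 6.58 and 8.94 CPM in UACC62P and at 47.0 and 41.2 CPM in UACC62R, a log2 fold change of 2.51 ± 0.13 (adjusted p = 7.52e-10). COL4A6, its neighbour on the X chromosome, was at 0.0346 and 0.360 CPM in UACC62P and at 9.23 and 8.98 CPM in UACC62R, a log2 fold change of 5.52 ± 0.40. The RefSeq starts of this head-to-head pair lie 380 bases apart (GRCh38.p14), and both genes were higher in the resistant line. COL18A1, which encodes the source of endostatin, was at 14.6 and 15.1 CPM in UACC62P and at 38.3 and 26.9 CPM in UACC62R, a log2 fold change of 1.13 ± 0.20.

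COL4A1 and COL4A2 encode the 2 chains of the common type IV network and are also transcribed head to head. COL4A1 was at 166 and 147 CPM in UACC62P and at 178 and 194 CPM in UACC62R. Its log2 fold change of 0.25 ± 0.11 did not pass the test (adjusted p = 0.0787), although the fit with the replicate number as a block called it (adjusted p = 0.0403). COL4A2 was at 371 and 332 CPM in UACC62P and at 352 and 372 CPM in UACC62R, with overlapping groups. The 126 bases between the 2 RefSeq starts are shown because both genes are read outward from them and because both fell in UACC62R at 24 h, while in UACC62P only COL4A2 passed the test then, as described further on. The run is on the minus strand at chr13:110307158-110307283 of GRCh38.p14, and capitals mark a CCAAT and a GGGCGG box, each on the opposite strand.
COL4A1: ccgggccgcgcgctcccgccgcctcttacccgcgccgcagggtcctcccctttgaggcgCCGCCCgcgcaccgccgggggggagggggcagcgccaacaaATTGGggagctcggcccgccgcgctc
A CCAAT is found on either strand in 34.61% of all 35116 promoter windows of 300 bases (250 before to 50 after a start) and a GGGCGG in 44.95%, so both matches are common and describe the sequence only.

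The 3 listed genes of type VI collagen, a microfibril that links cells to the matrix, were all higher in UACC62R, but by very different amounts. COL6A1 was at 67.2 and 61.6 CPM in UACC62P and at 247 and 235 CPM in UACC62R, a log2 fold change of 1.90 ± 0.08 (adjusted p = 1.52e-10). COL6A2, which lies close to it on chromosome 21, was at 28.3 and 21.8 CPM against 301 and 308 CPM, a log2 fold change of 3.60 ± 0.14. COL6A3 was at 2.11 and 1.15 CPM against 311 and 253 CPM, a log2 fold change of 7.42 ± 0.23 (adjusted p = 3.21e-12).

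COL9A3, a chain of the cartilage collagen type IX, was the most abundant listed chain per transcript length in UACC62P and scarce in UACC62R. It stood at 339 and 353 CPM in UACC62P and at 3.13 and 2.07 CPM in UACC62R. It fell by 7.06 on the log2 scale (SE 0.21, adjusted p = 2.20e-12). COL9A3 overlaps the opposite-strand gene TCFL5, and no source used here states whether counting used strand, so the reads of such pairs cannot be told apart. COL18A1 and SLC19A1, and COL4A1 and COL4A2, overlap in the same way.

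Of the remaining 6 chains, 5 were higher in the resistant line. COL12A1, a fibril-associated chain, rose by 5.12 ± 0.37 on the log2 scale from 0.277 and 0.504 CPM to 10.8 and 16.5 CPM. COL13A1, a transmembrane collagen, rose by 3.53 ± 0.30 and COL7A1, the chain of the anchoring fibrils, by 1.77 ± 0.24. COL8A2 rose by 1.81 ± 0.59, but the call was lost without replicate 1 or 2 of UACC62P or replicate 2 of UACC62R (adjusted p = 0.0635, 0.0848 and 0.0726). COL8A1 had 15 reads in UACC62R and 0 in UACC62P at 0 h, at least 4.55-fold higher with a floor of 3 reads over the group, and its call was lost without replicate 1 or 2 of UACC62P or replicate 1 of UACC62R (adjusted p = 0.0911, 0.0880 and 0.0617). COL16A1, at 33.5 and 44.2 CPM in UACC62P and 31.0 and 31.8 CPM in UACC62R, did not pass the test.

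**Figure D2:**
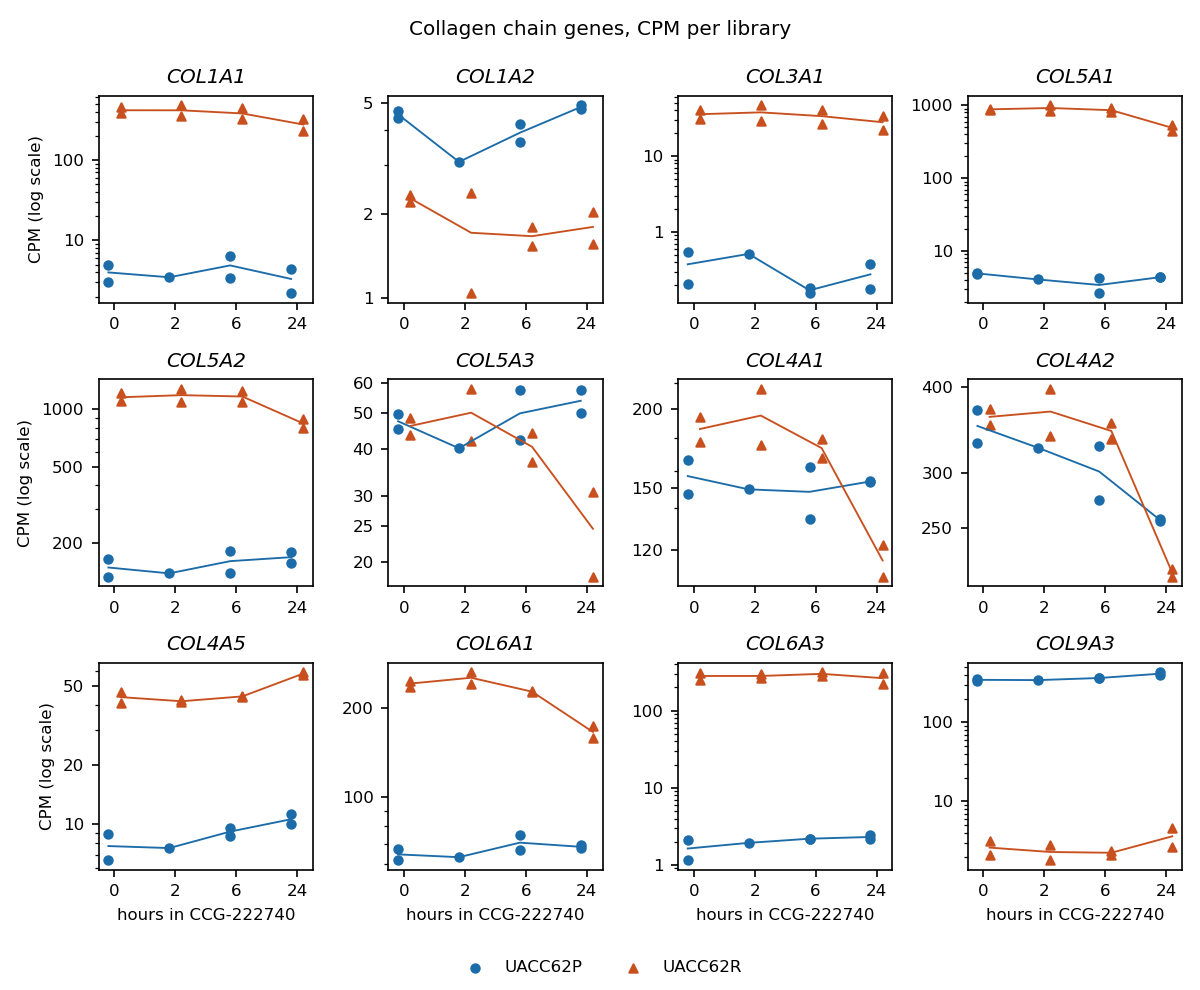
Level in CPM (log scale on y, with a range of its own in each panel) of 12 chain genes in every library used, against hours in CCG-222740 (x axis). Circles are UACC62P and triangles UACC62R, lines join the group means, and UACC62P has 1 library at 2 h. COL1A1, COL3A1, COL5A1 and COL6A3 stay in separate bands by line at every time, whereas COL5A3, COL4A1 and COL4A2 of UACC62R drop between 6 and 24 h.

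The processing genes differed by less. All 5 prolyl hydroxylase genes were higher in UACC62R at 0 h. P4HB, the protein disulfide isomerase that is the beta subunit of prolyl 4-hydroxylase, was the most abundant member per transcript length in both lines, at 1215 and 1126 CPM in UACC62P and 1543 and 1562 CPM in UACC62R (log2 fold change 0.41 ± 0.06). Among the catalytic alpha subunits, P4HA1 differed by 0.35 ± 0.07, P4HA2 by 1.75 ± 0.10 and P4HA3 by 2.33 ± 0.21 on the log2 scale. P3H1, the prolyl 3-hydroxylase, differed by 0.34 ± 0.10, and that call was lost without replicate 2 of UACC62P or of UACC62R (adjusted p = 0.0818 and 0.105). P4HA2 overlaps PDLIM4 and P4HA3 overlaps PPME1 on the opposite strand, where PDLIM4 had 44765 reads over 16 libraries against 99915 of P4HA2, and PPME1 58838 against 4238 of P4HA3.

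The lysyl hydroxylase genes did not move together. PLOD2, which hydroxylates the telopeptide lysines that form stable cross-links, was at 17.9 and 20.0 CPM in UACC62P and at 142 and 188 CPM in UACC62R, a log2 fold change of 3.12 ± 0.17 (adjusted p = 1.21e-09). PLOD3, which also glycosylates collagen, was at 1086 and 954 CPM in UACC62P and at 521 and 504 CPM in UACC62R. It fell by 0.99 (SE 0.08, adjusted p = 1.32e-07), while PLOD1, the helical lysyl hydroxylase, rose by 0.64 ± 0.10. PLOD2 was thus the lysyl hydroxylase gene with the largest difference and, per transcript length, still the least abundant of the 3 in the resistant line.

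The chaperone genes SERPINH1 (HSP47, the collagen-specific chaperone) and FKBP10 (a prolyl isomerase) did not pass the test between the lines. SERPINH1 was at 586 and 526 CPM in UACC62P and at 537 and 559 CPM in UACC62R, with overlapping groups and a 95% interval of the log2 fold change from -0.18 to 0.14. FKBP10 differed by 0.14 ± 0.07 (adjusted p = 0.126). CRTAP, the partner of P3H1, was higher by 0.37 ± 0.09, a call lost without UACC62P replicate 2 (adjusted p = 0.0580).

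Of the genes that act outside the cell, the C-proteinase gene BMP1 and its enhancer PCOLCE moved apart. BMP1 was at 54.3 and 47.5 CPM in UACC62P and at 183 and 184 CPM in UACC62R, a log2 fold change of 1.85 ± 0.09 (adjusted p = 6.13e-10). PCOLCE was at 391 and 351 CPM in UACC62P and at 139.7 and 128 CPM in UACC62R, a fall by 1.47 (SE 0.09, adjusted p = 3.86e-09).

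Because the partner genes of a trimer moved by different amounts, their ratio per transcript length was computed within each library, over all times. COL1A1 over COL1A2 lay between 0.359 and 1.21 in the 7 UACC62P libraries (median 0.763) and between 118 and 272 in the 8 UACC62R libraries (median 158). COL5A1 over COL5A2 lay between 0.0157 and 0.0305 in UACC62P and between 0.471 and 0.659 in UACC62R. COL6A3 over COL6A2 lay between 0.0170 and 0.0343 in UACC62P and between 0.224 and 0.367 in UACC62R. In none of these 3 pairs did the lines overlap, so the chain mix differed as well as the amount. Type I collagen holds more alpha 1 than alpha 2 chains, and a homotrimer of alpha 1 chains is also known.

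COL6A1 over COL6A2 ran the other way, from 1.94 to 2.65 in UACC62P and from 0.406 to 0.669 in UACC62R. COL4A1 over COL4A2 differed little by comparison, from 0.435 to 0.592 in UACC62P and from 0.489 to 0.551 in UACC62R, with overlapping ranges. P4HA1 over P4HA2 lay above 1 in every UACC62P library (1.87 to 2.71) and below 1 in every UACC62R library (0.799 to 0.950). These ratios repeat the differences between the lines tested above and are given as a description. They assume that reads come from the principal transcript of each gene.

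**Figure D3:**
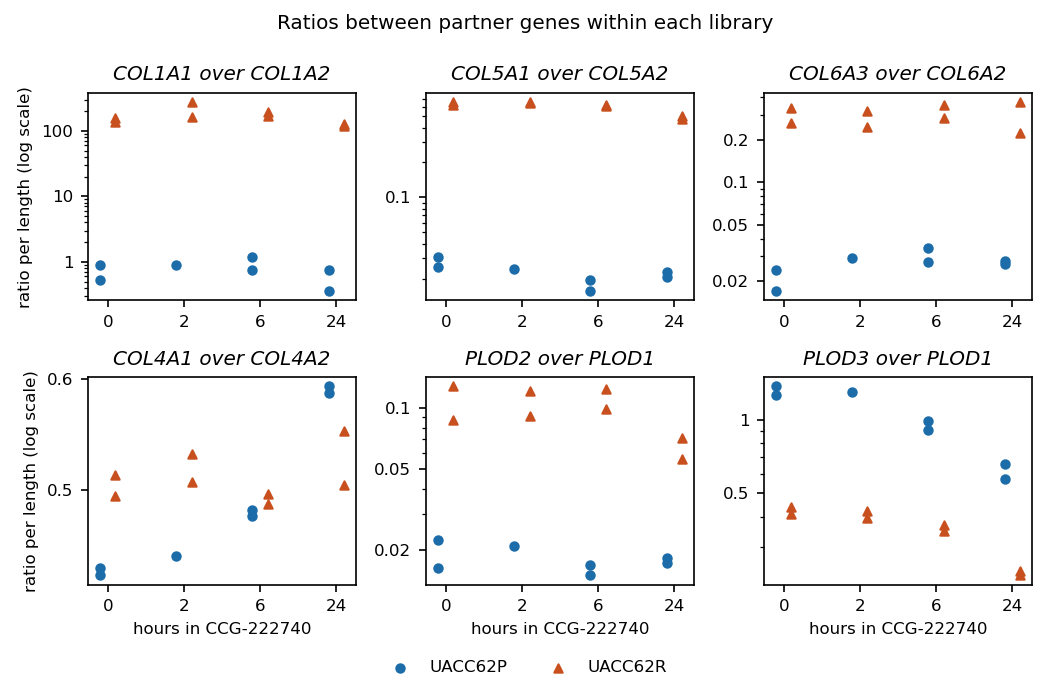
Ratio per transcript length of 6 pairs of genes within each library (y axis, log scale with a range of its own in each panel) against hours in CCG-222740 (x axis), with circles for UACC62P and triangles for UACC62R. The first 3 pairs and the PLOD2 over PLOD1 pair separate the lines at every time. PLOD3 over PLOD1 was lower at 24 h than at 0 h in both lines, from 1.27 to 1.37 down to 0.569 to 0.659 in UACC62P and from 0.409 to 0.437 down to 0.231 to 0.240 in UACC62R.

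Per transcript length, COL9A3 and COL4A2 led the listed chains of UACC62P, with medians of 146 and 50.3 CPM per kilobase over 7 libraries. COL5A2, COL5A1 and COL6A2 led those of UACC62R, with medians of 154, 100 and 88.0 CPM per kilobase over 8 libraries. The most abundant listed chain thus belonged to a cartilage-type collagen in the parental line and to type V collagen in the resistant line.

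After 2 h in CCG-222740 no member passed the edgeR test in either line, and none was at an unadjusted p under 0.05 in UACC62P, where 1 library was left. In UACC62R 2 were, against 854 of the 20280 genes. These were SERPINH1 and P4HA1, with log2 fold changes of 0.21 ± 0.07 and 0.17 ± 0.07. DESeq2 called none in either line. Among all genes, 0.0444% were called in UACC62P and 0.074% in UACC62R at 2 h.

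At 6 h the 3 members that passed the test were P4HA1, P4HA2 and SERPINH1, in both lines and all upward. Among all genes, 0.848% were called higher in UACC62P and 0.38% in UACC62R. P4HA2 rose in UACC62P from 73.4 and 56.9 CPM to 108 and 108 CPM, a log2 fold change of 0.73 ± 0.10 (adjusted p = 0.00265), and in UACC62R from 218 and 221 CPM to 329.7 and 329 CPM, a log2 fold change of 0.59 ± 0.10 (adjusted p = 0.0139). P4HA1 rose by 0.37 ± 0.07 and 0.40 ± 0.07 and SERPINH1 by 0.45 ± 0.07 and 0.39 ± 0.07 in UACC62P and UACC62R. No member passed the test downward at 6 h, where 0.671% of all genes were called lower in UACC62P and 0.286% in UACC62R. In UACC62P the fit with the replicate block called 5 members, adding PLOD1 upward and FKBP10 downward (adjusted p = 0.00413 and 0.00578). Of the 20280 genes, that fit called 739 higher and 676 lower.

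These early calls rest on few libraries. Without UACC62P 0 h replicate 2 or 6 h replicate 1, 1 member was called in UACC62P, and P4HA2 was called in every such fit. Without UACC62R 0 h replicate 2 or either 6 h library, none was called in UACC62R, and without 0 h replicate 1, 1 was. With all 16 libraries no member was called at 6 h in either line, and the common dispersion was 0.0622 against 0.00985 with 15.

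The regions before the RefSeq starts of P4HA1 and SERPINH1 are shown because these genes rose in both lines at 6 h. The P4HA1 run is on the minus strand at chr10:73096867-73097116 and the SERPINH1 run, from the first of its listed starts, on the plus strand at chr11:75562003-75562252, both of GRCh38.p14. Capitals mark ACGTG, the core that hypoxia-inducible factors bind, read here on the opposite strand of P4HA1, and in SERPINH1 a TTCNNGAA that overlaps a GAANNTTC, inverted pairs of the unit that heat shock factors bind.
P4HA1: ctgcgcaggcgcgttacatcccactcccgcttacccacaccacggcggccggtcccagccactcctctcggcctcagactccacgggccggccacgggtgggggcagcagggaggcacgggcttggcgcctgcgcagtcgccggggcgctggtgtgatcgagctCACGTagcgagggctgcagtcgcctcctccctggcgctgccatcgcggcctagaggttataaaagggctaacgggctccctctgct
SERPINH1: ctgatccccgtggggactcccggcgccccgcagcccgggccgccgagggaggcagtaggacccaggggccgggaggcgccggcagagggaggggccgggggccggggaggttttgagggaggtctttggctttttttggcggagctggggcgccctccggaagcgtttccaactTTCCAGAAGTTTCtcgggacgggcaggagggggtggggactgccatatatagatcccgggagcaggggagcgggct
On either strand, ACGTG is found in 21.41% of all promoter windows of 300 bases, GAANNTTC in 6.77% and TTCNNGAA in 7.74%. Of the 37 members, 27 had a window in the RefSeq table, with 31 windows in all. ACGTG was found in 8 of the 31, GAANNTTC in 5 and TTCNNGAA in 1, the SERPINH1 window shown. Windows that overlap count a shared site again, as for ACGTG in COL5A1 and for GAANNTTC in COL4A5 and COL4A6. ACGTG was also found in both listed windows of SERPINH1. The window of P4HA2 holds no ACGTG, and a match is not a binding site.

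After 24 h P4HA1 and P4HA2 were higher than at 0 h in both lines, and in the resistant line several chain genes had fallen. In UACC62P 3 members were higher and 3 lower than at 0 h, where 2.19% and 1.65% of all genes were called higher and lower. In UACC62R 6 were higher and 10 lower, where 6.48% and 8.23% of all genes were called. With the replicate block 7 members were higher and 16 lower in UACC62R, against 2230 and 2668 of the 20280 genes, and 5 and 4 in UACC62P, against 1224 each way. The median log2 fold change of the members was 0.16 in UACC62P and -0.31 in UACC62R, against 0.00 and 0.01 over all genes. The summed level of the 24 chains in UACC62R was 2963 ± 161 CPM at 24 h (SD, n = 2) against 4165 ± 131 CPM at 0 h, while in UACC62P it was 1341 ± 2.22 CPM against 1314 ± 44.95 CPM.

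**Figure D4:**
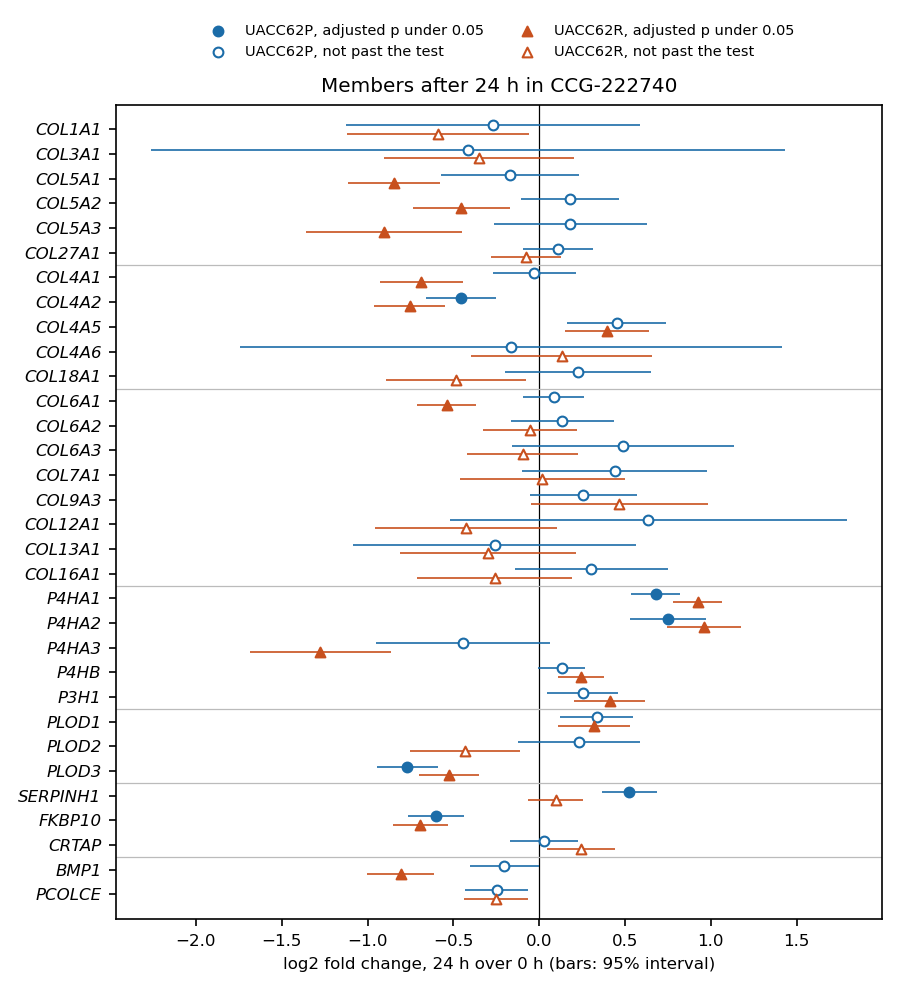
Log2 fold change of 24 h over 0 h (x axis) for the 32 members whose mean log2 CPM was 2 or more (y axis, in the order of roles), with 95% intervals. Circles are UACC62P and triangles UACC62R, and filled symbols passed the test. P4HA1 and P4HA2 lie to the right in both lines, PLOD3, FKBP10 and COL4A2 to the left in both, and COL6A1, COL4A1 and BMP1 are filled in UACC62R alone.

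Prolyl hydroxylase genes led the upward calls. P4HA1 rose in UACC62P from 137 and 131 CPM to 223 and 206 CPM, a log2 fold change of 0.68 ± 0.07 (adjusted p = 6.98e-05), and in UACC62R from 175 and 167 CPM to 323 and 325 CPM, a log2 fold change of 0.92 ± 0.07 (adjusted p = 2.33e-06). P4HA2 reached 117 and 102 CPM in UACC62P and 411 and 444 CPM in UACC62R, with log2 fold changes of 0.75 ± 0.10 and 0.96 ± 0.10. In UACC62R P4HB rose by 0.24 ± 0.06 and P3H1 by 0.41 ± 0.10. The P4HB call was lost without any single 0 h or 24 h library of UACC62R (adjusted p from 0.0534 to 0.0928), and the P3H1 call without 0 h replicate 1 (adjusted p = 0.0689). P4HA3, per length the scarcest of the 3 alpha subunit genes in both lines, fell in UACC62R from 15.5 and 16.2 CPM to 5.07 and 8.01 CPM, a change of -1.27 ± 0.19 (adjusted p = 5.53e-04), and did not pass the test in UACC62P.

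SERPINH1 and FKBP10, both chaperone genes, moved apart in UACC62P. SERPINH1 in UACC62P reached 827 and 773 CPM, a rise of 0.53 ± 0.07 (adjusted p = 0.00120). In UACC62R it was at 582 and 591 CPM at 24 h, above the 537 and 559 CPM of 0 h and below the 708 and 728 CPM of 6 h, and did not pass the test against 0 h. FKBP10 fell in UACC62P from 706 and 649 CPM to 459.98 and 434 CPM, a change of -0.60 ± 0.08 (adjusted p = 4.84e-04), and in UACC62R from 742 and 753 CPM to 450.1 and 475 CPM, a change of -0.69 ± 0.08 (adjusted p = 4.78e-05).

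PLOD3 fell in both lines, in UACC62P from 1086 and 954 CPM to 597 and 601 CPM (-0.77 ± 0.08, adjusted p = 1.32e-04) and in UACC62R from 521 and 504 CPM to 364 and 349 CPM (-0.52 ± 0.08, adjusted p = 7.22e-04). PLOD1 rose by 0.32 ± 0.10 in UACC62R, a call lost without 0 h replicate 2 or 24 h replicate 1 (adjusted p = 0.276 and 0.235), and, in UACC62P, had a log2 fold change of 0.33 ± 0.10 that did not pass (adjusted p = 0.0781) but was called with the replicate block (adjusted p = 9.16e-04). PLOD2 in UACC62R was at 113 and 132 CPM at 24 h against 142 and 188 CPM at 0 h and did not pass the test (adjusted p = 0.0709), but was called with the block (adjusted p = 0.00659). PLOD3 overlaps ZNHIT1 on the opposite strand.

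Of the 5 basement membrane chain genes tested, COL4A1 and COL4A2 fell in UACC62R, COL4A5 rose and 2 were not called. COL4A2 dropped in UACC62R from 352 and 372 CPM to 218 and 212.0 CPM, a change of -0.75 ± 0.10 (adjusted p = 1.62e-04), and COL4A1 from 178 and 194 CPM to 122 and 109 CPM, a change of -0.69 ± 0.11 (adjusted p = 0.00105). In UACC62P COL4A2 fell from 371 and 332 CPM to 255 and 258 CPM, a change of -0.46 ± 0.10 (adjusted p = 0.0174), a call lost without 0 h replicate 1 or either 24 h library (adjusted p = 0.127, 0.123 and 0.0995). COL4A1 in UACC62P stayed between 134 and 166 CPM in every library, with a 95% interval of the log2 change at 24 h from -0.27 to 0.21. COL4A5 went the other way in UACC62R, from 47.0 and 41.2 CPM to 59.0 and 57.1 CPM, a change of 0.40 ± 0.11 (adjusted p = 0.0308), which was lost without 0 h replicate 2 or either 24 h library (adjusted p = 0.245, 0.167 and 0.0718).

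Of the fibrillar chains, the 3 genes of type V collagen fell in UACC62R. COL5A1 went from 863 and 903 CPM to 450.0 and 533 CPM, a change of -0.84 ± 0.13 (adjusted p = 5.19e-04), and COL5A2 from 1095 and 1208 CPM to 799 and 882 CPM, a change of -0.45 ± 0.13 (adjusted p = 0.0329). COL5A3 went from 48.4 and 43.7 CPM to 18.3 and 30.8 CPM, a change of -0.90 ± 0.21 (adjusted p = 0.0108). COL5A2 lost its call without 0 h replicate 2 or 24 h replicate 1 (adjusted p = 0.212 and 0.140), and COL5A3 lost it without 24 h replicate 1 (log2 fold change -0.59, adjusted p = 0.0820). COL1A1 was at 229 and 324 CPM at 24 h, below the 379.8 and 453 CPM of 0 h, and did not pass the test (-0.59 ± 0.25, adjusted p = 0.135), though it did with the block (adjusted p = 0.0201). No fibrillar chain passed the test in UACC62P at 24 h.

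COL6A1 and BMP1 fell in the resistant line. COL6A1 went from 247 and 235 CPM to 173 and 158 CPM, a change of -0.54 ± 0.08 (adjusted p = 5.46e-04). BMP1 went from 183 and 184 CPM to 102 and 108 CPM, a change of -0.81 ± 0.09 (adjusted p = 5.72e-05). COL6A2 and COL6A3, the other listed chains of type VI, had 95% intervals of -0.32 to 0.22 and -0.42 to 0.23 in UACC62R. They did not pass the test.

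**Figure D5:**
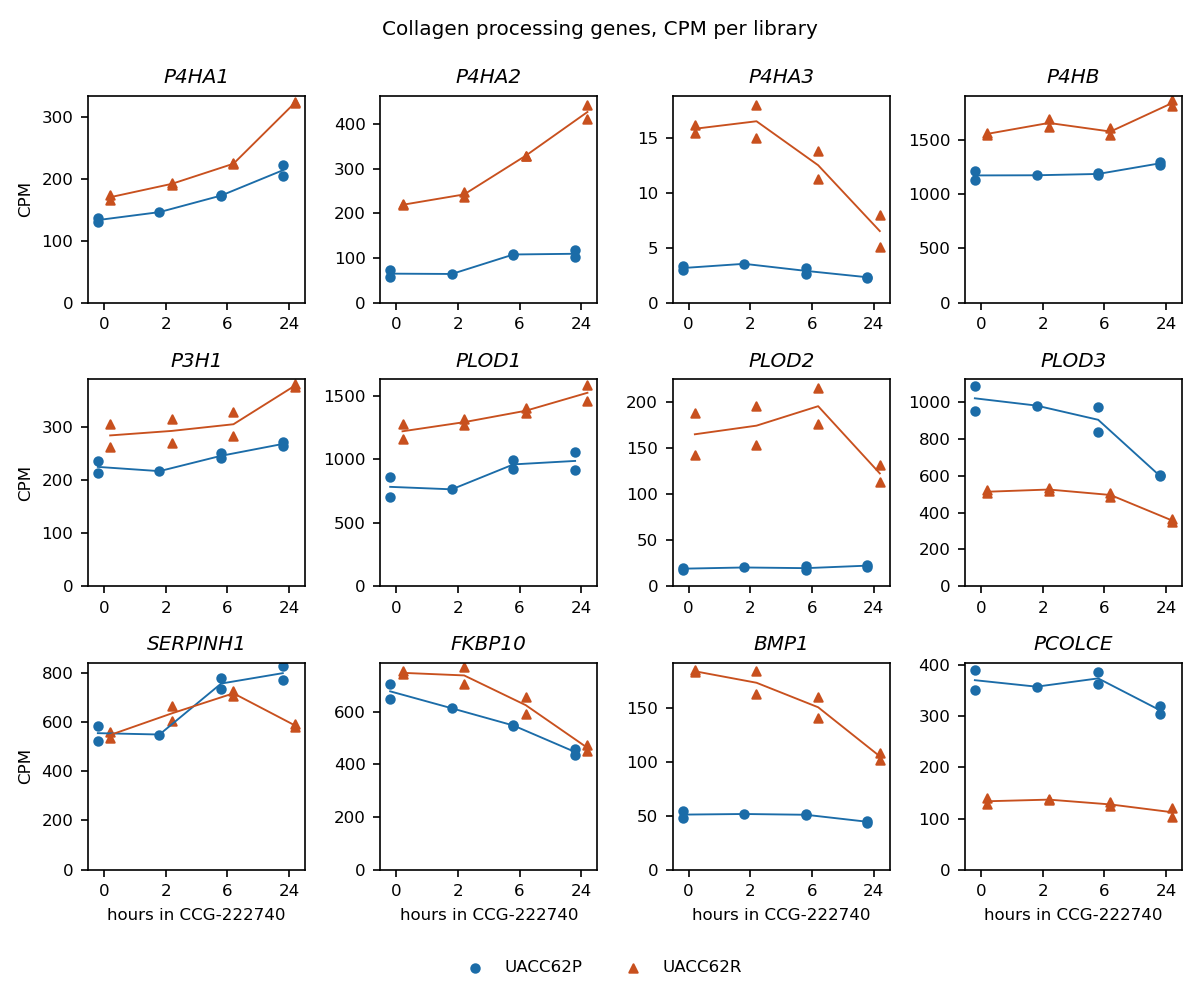
Level in CPM (linear y axis from 0, with a range of its own in each panel) of 12 processing genes in every library used, against hours in CCG-222740 (x axis). Circles are UACC62P and triangles UACC62R, and lines join the group means. P4HA1 and P4HA2 were higher at 6 and 24 h in both lines, PLOD3 and FKBP10 were lower at 24 h, and SERPINH1 of UACC62R was highest at 6 h.

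The 5 members called in both lines at 24 h (P4HA1, P4HA2, PLOD3, FKBP10 and COL4A2) had the same direction in each. Of the 16 calls in UACC62R, 10 held whichever single library was left out, and of the 6 in UACC62P, 5 did. With all 16 libraries 4 members were called in UACC62R (P4HA1, COL4A1, COL4A2 and FKBP10) and 1 in UACC62P (FKBP10).

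Within the treated libraries, UACC62R also showed the fall, between 6 and 24 h, with the same 24 h libraries as against 0 h. There, 4 members were higher at 24 h than at 6 h and 12 lower, where 5.18% and 7.39% of all genes were called. With the replicate block 8 were higher and 14 lower, against 2016 and 2475 of the 20280 genes. COL5A1 changed by -0.81 ± 0.13, COL4A2 by -0.69 ± 0.10, COL4A1 by -0.59 ± 0.11, P4HA3 by -0.93 ± 0.19 and BMP1 by -0.52 ± 0.09 on the log2 scale. PLOD2 fell from 176 and 215 CPM to 113 and 132 CPM (-0.67 ± 0.15, adjusted p = 0.00966), and SERPINH1 by 0.29 (SE 0.07, adjusted p = 0.0206). P4HA1 still rose, by 0.53 ± 0.07 (adjusted p = 2.35e-04), and P4HA2 by 0.37 ± 0.10. Leaving out UACC62R 6 h replicate 2 brought the 16 calls down to 8, leaving out 24 h replicate 1 gave 9, and all 16 libraries gave 1, COL4A2. Of the genes just named, P4HA3, PLOD2 and SERPINH1 lost their calls without either of those 2 libraries, and P4HA2 without 24 h replicate 2 or either 6 h library.

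In UACC62P PLOD3 alone passed the test between 6 and 24 h, with a change of -0.59 ± 0.08 (adjusted p = 0.00512), where 0.345% of all genes were called higher and 0.39% lower. The call was lost without 6 h replicate 1 or either 24 h library (adjusted p = 0.0504, 0.0863 and 0.0607). With the replicate block, 6 members were called, where 475 of the 20280 genes were called higher and 550 lower. PLOD3 and COL7A1, COL16A1, P4HA1, FKBP10 and PCOLCE made up that list, with COL7A1, COL16A1 and P4HA1 upward.

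The difference of the response between the lines was tested directly. At 2 and 6 h no member passed (edgeR), with 0 and 1 members at an unadjusted p under 0.05, and DESeq2 called none. Among all genes, 0% and 0.00493% were called. At 6 h, 951 of the 20280 genes were at an unadjusted p under 0.05. At 24 h 1 member passed, where 0.242% of all genes were called higher and 0.321% lower. This was COL6A1, which responded more negatively in UACC62R by 0.62 ± 0.12 on the log2 scale (adjusted p = 0.0299). Its 24 h change was -0.54 in UACC62R and 0.09 in UACC62P. At 24 h, 13 of the 36 members were at an unadjusted p under 0.05, 12 of them more negative in UACC62R. Among all genes, 2196 of 20280 were under that limit.

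With the replicate block, 8 members passed at 24 h, all more negative in UACC62R: COL5A2, COL5A3, COL4A1, COL18A1, COL6A1, PLOD2, SERPINH1 and BMP1. Of the 20280 genes, that fit called 358 higher and 464 lower. The COL6A1 call itself was lost without any 0 h or 24 h library other than UACC62R 24 h replicate 1 (adjusted p from 0.0522 to 0.124), and with all 16. For P4HA1 the difference was 0.24 ± 0.09 (adjusted p = 0.337), for PLOD3 0.24 ± 0.12 (adjusted p = 0.472) and for FKBP10 -0.09 ± 0.11 (adjusted p = 0.829). The 95% interval for FKBP10 ran from -0.32 to 0.14.

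At 24 h in the compound the lines still stood apart, with 21 members higher in UACC62R and 10 lower, where 28.1% and 27% of all genes were called. The median log2 fold change of the members was 0.61 at 24 h against 1.65 at 0 h, and the 2 medians come from different libraries of the same lines. COL1A1, COL3A1, COL5A1 and COL6A3 remained higher, by 6.38 ± 0.34, 6.64 ± 0.45, 6.81 ± 0.17 and 6.83 ± 0.22. Passing the test as lower at 24 h, and not called at 0 h, were COL5A3 (-1.13 ± 0.21), COL16A1 (-0.87 ± 0.21), SERPINH1 (-0.45 ± 0.07), COL4A1 (-0.41 ± 0.11), COL27A1 (-0.37 ± 0.10) and COL4A2 (-0.25 ± 0.10). COL4A2 lost that call without UACC62R replicate 2 or either UACC62P library (adjusted p = 0.101, 0.0636 and 0.115). The change of the line difference between 0 and 24 h is the difference of response tested above, which none of these 6 passed, and which COL5A3, COL4A1 and SERPINH1 passed with the replicate block.

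The wider collagen pathway was followed in a list of 65 further genes, of which 60 were tested: other chains, cross-linking and trimming enzymes, receptors and collagenases. At 0 h 29 were higher in UACC62R and 19 lower, where 27.8% and 26.1% of all genes were called, with a median log2 fold change of 0.67. Among them, the 16 other collagen chains tested held 4 higher and 7 lower, with a median log2 fold change of -0.31. TLL1, a protease of the BMP1 family, had 4 reads in UACC62P and 7112 in UACC62R, and ADAMTS2, the N-proteinase of procollagen, had 12 and 9900 reads. ADAMTS14, a relative of ADAMTS2, had 0 and 236 reads. Lower in UACC62R were COL9A1, a partner chain of COL9A3, with 2386 reads in UACC62P and 0 in UACC62R, COL19A1 by 5.06 (SE 0.12), and the collagenase gene MMP8, with 721 and 3 reads. Both type IX chain genes named here were thus low in the resistant line. At 24 h 26 were higher and 15 lower, where 28.1% and 27% of all genes were called, and ITGA11, a collagen-binding integrin gene, then had 148 reads in UACC62P and 32932 in UACC62R.

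Under treatment, the shares of these 60 genes called at 24 h in UACC62R were near those of all genes in the fit without the replicate block. At 24 h 3 were higher and 2 lower in UACC62P, where 2.19% and 1.65% of all genes were called, and 5 were higher and 4 lower in UACC62R, where 6.48% and 8.23% were. With the replicate block these counts were 7 and 5 in UACC62P, against 1224 each way of the 20280 genes. They were 12 and 6 in UACC62R, against 2230 and 2668. The higher calls were then a larger share than among all genes in both lines. MIA3, which loads procollagen into transport vesicles, rose at 6 h in both lines (0.66 ± 0.09 in UACC62P and 0.72 ± 0.09 in UACC62R) and at 24 h by 1.05 ± 0.09 and 1.33 ± 0.09. DDR2, a collagen receptor, rose by 0.70 ± 0.10 in UACC62P at 24 h. These calls held whichever single library was left out.

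The collagenase genes MMP14 and MMP1 changed in opposite directions in UACC62R. MMP14, a membrane-bound collagenase, fell at 24 h by 1.30 (SE 0.13) in UACC62P and by 0.90 (SE 0.13) in UACC62R, calls that held in the same way. MMP1, the secreted interstitial collagenase, was at 5.74 and 4.32 CPM at 0 h in UACC62R and at 16.98 and 9.91 CPM at 24 h, a log2 fold change of 1.42 ± 0.31 (adjusted p = 0.00774), but the call was lost without 0 h replicate 2 or 24 h replicate 1 (adjusted p = 0.0986 and 0.104). At 6 h in UACC62P MMP14 had already fallen by 0.82 (SE 0.13), a call lost without 0 h replicate 1 or 6 h replicate 2 (adjusted p = 0.0663 and 0.0970).

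The other named calls at 24 h were on genes of low level or small change, and each was lost without at least 1 library. Further UACC62R calls of the wider list at 24 h are not named, and whether they held without single libraries is not given. In UACC62R the integrin gene ITGA10 rose by 0.85 ± 0.21, lost without 0 h replicate 2 or 24 h replicate 1 (adjusted p = 0.186 and 0.0942). COL15A1 fell there by 1.41 (SE 0.30), lost without 0 h replicate 2 (adjusted p = 0.0675), and ADAMTS14 by 1.25 (SE 0.34), lost without any single 0 h or 24 h library. In UACC62P COL11A2 rose by 0.85 ± 0.17, lost without 0 h replicate 1 or 24 h replicate 1 (adjusted p = 0.112 and 0.144), and P3H4 fell by 0.46 (SE 0.11), lost without any single 0 h or 24 h library.

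PPIB, the prolyl isomerase cyclophilin B, fell by 0.30 (SE 0.07) at 6 h in UACC62P, a call lost without any single 0 h or 6 h library of that line. It was the 1 gene of the wider list whose 24 h response differed between the lines, higher in UACC62R by 0.50 ± 0.10 (adjusted p = 0.0341), and that call was lost without any single 0 h or 24 h library (adjusted p from 0.0545 to 0.160). Within the treated libraries of UACC62R, 4 of the 60 were higher at 24 h than at 6 h and 1 lower, where 5.18% and 7.39% of all genes were called. MIA3 rose by 0.61 ± 0.09, ITGA10 by 0.97 ± 0.22 and COL11A2 by 0.84 ± 0.22, and CREB3L1, a transcription factor gene, fell by 0.46 (SE 0.14). The MIA3 call held, those of COL11A2 and CREB3L1 were lost without any single 6 h or 24 h library, and that of ITGA10 without 6 h replicate 1 or 24 h replicate 1 (adjusted p = 0.0894 and 0.0659).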

How the data were processed

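RNA libraries (TruSeq stranded mRNA, single-end 50 bp reads on a HiSeq, per the labels' protocols) were counted by the authors, who deposited raw read counts per Ensembl gene for each library. The submitters' processing notes name the build hg19, the counter HTSeq 0.6.1, the aligner HISAT2 2.1.0, and Trimmomatic 0.33, FastQC 0.11.5 and bcl2fastq 2.19.0. No source used here gives the strand setting of HTSeq. The 5 summary lines of each file stayed out of library sizes. Over the 15 libraries used they held these shares of all reads: not aligned 9.33 to 17.8%, not unique 18.6 to 22.0%, no feature 2.15 to 2.94%, ambiguous 4.00 to 4.67%. In the library left out, 6.12% were not aligned and 3.41% had no feature. Reads in genes were 25.9 to 33.3 M per library (median 29.6 M), so counting error is small above a few CPM and dominates below 1 CPM. The floor of 3 reads covers counting error only.

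The 15 libraries were fitted together with edgeR 4.0.16 (R 4.3.3, limma 3.58.1), with 1 coefficient per group, TMM scaling, the filterByExpr filter (20280 genes) and the quasi-likelihood F test. Calls were made at 0.05 on p-values adjusted by Benjamini and Hochberg over these genes, SE is the log2 fold change over the root of F, and 95% intervals use the moderated degrees of freedom. CPM are counts over library size with TMM scaling. Lengths are of principal transcripts (GENCODE release for GRCh38), and promoters come from RefSeq, GRCh38.p14. The fit was tested on simulated data.

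Same-numbered libraries deviated together (21 of 21 pairs of groups, correlations 0.174 to 0.718 over 8273 genes), so a replicate block was run as an alternative. The main fit has no such term and treats the libraries as unpaired. It gave every call, SE and interval not marked otherwise. Its common dispersion was 0.00985, against 0.00425 with the block. The pairing comes from the data, not from a label. The members and all gene lists were chosen with earlier results of these data known. Named are the members and, of the other pathway genes, those called with the 3 largest changes each way and a mean log2 CPM of at least 0. Alternatives were all 16 libraries, the replicate block, DESeq2 1.42.0 and its size factors, library size alone, no low count filter, and leaving out each library.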

Additional observations from a re-analysis of the deposited data

Results flagged for a closer look

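The library labelled UACC62P 2 h replicate 1 enters no comparison above. It was left out because it resembled UACC62R, and its member levels are given as a description of that resemblance. Of the 24 members higher in UACC62R at 0 h, 18 lay above every other UACC62P library in it, and 4 of the 4 lower members lay below every other UACC62P library. These members were picked for differing between the lines, and the same shares over all genes were not computed. COL1A1 stood at 267 CPM, COL6A3 at 291 CPM and COL9A3 at 2.32 CPM in it. Its counts differed from those of its replicate with a chi-square per degree of freedom of 323, against 9.86 to 20.3 for the other 7 replicate pairs.

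COL6A1 was the member whose 24 h response passed a test of the difference between the lines, at -0.62 on the log2 scale in UACC62R relative to UACC62P. All 36 tested members were considered for this. The call was lost in 7 of 8 fits that left out 1 library (adjusted p up to 0.124) and with all 16 libraries, and with the replicate block 8 members passed.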

How the results depend on the processing

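Over the 105 member calls and the alternatives run, no direction reversed. The replicate block and dropping the low count filter kept all 105, DESeq2 and its size factors in edgeR each lost 1, library size alone lost 2, all 16 libraries lost 44 of 104, and leaving out 1 library lost 76 of 424. The cause was not tested except where fewer samples or a left-out library is the alternative itself. Beside the calls given above, the block added COL18A1 between the lines at 24 h (higher in UACC62R), COL4A5 upward and PCOLCE downward in UACC62P at 24 h, and FKBP10 downward in UACC62R at 6 h. In UACC62R at 24 h it added COL3A1, COL18A1, COL12A1 and PCOLCE downward and CRTAP upward, and against 6 h COL18A1 and COL12A1 downward and COL7A1, COL9A3, P3H1 and CRTAP upward. It changed no other call.

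With all 16 libraries the number of members called went from 3 to 0 in UACC62P at 6 h, from 6 to 1 in UACC62P at 24 h, from 3 to 0 in UACC62R at 6 h, from 16 to 4 in UACC62R at 24 h, from 1 to 0 in UACC62P and from 16 to 1 in UACC62R for 24 h against 6 h, and from 1 to 0 for the difference of response at 24 h. Under the replicate block it was 5 in UACC62P at 6 h, 6 in UACC62P for 24 h against 6 h and 8 for the difference at 24 h. Without the low count filter these 3 counts were 7, 6 and 9. DESeq2 gave 4 for UACC62P 24 h against 6 h and 6 for the difference at 24 h, library size alone gave 2 for the former, and DESeq2 size factors gave 2 for the latter.

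Leaving out 1 library gave 24 to 27 calls between the lines at 0 h (main 28) and 30 to 31 at 24 h (main 31). In UACC62P it gave 1 to 2 at 6 h, 5 to 7 at 24 h and 0 to 1 for 24 h against 6 h. In UACC62R it gave 0 to 1 at 6 h, 11 to 18 at 24 h and 8 to 14 for 24 h against 6 h, and for the difference at 24 h it gave 0 to 2. Where a group is left with 1 library, that library is assumed to vary like the other groups. Library size alone shifted the median of all genes between the lines to 0.10 at 0 h and 0.11 at 24 h. With 2 libraries per group, chains near 1 CPM (COL8A1, COL8A2, COL11A1, COL4A6 in UACC62P) carry wide intervals.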
